A study of Mus musculus with 18 samples.

Results

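Immediate early genes are transcribed within minutes of a stimulus without new protein synthesis, and in neurons synaptic activity is the stimulus they are best known for. Calcium entry and kinase cascades act on factors that are already bound near these genes, the cyclic AMP response element binding protein CREB and the serum response factor SRF among them. Their products are transcription factors of the AP-1, EGR, NR4A and bHLH-PAS families, which act on later genes, and effectors such as Arc, which acts at the synapse itself. Their mRNAs are short-lived, so the level in a dissected tissue depends on what the animal did shortly before. 10 of these genes were followed here: *Fos*, *Fosb*, *Junb*, *Egr1*, *Egr2*, *Egr4*, *Arc*, *Npas4*, *Nr4a1* and *Ier2*. They were given by symbol, and all 10 were matched to 1 counted gene each, among 38561 genes counted, and passed the filter on low counts that left 17545 genes.

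Frontal cortex, striatum and hippocampus had been taken from adult mice on a C57 Bl6J background, either wild type (WT) or homozygous for a gene-trap insertion in *Pcm1* (Pcm1-/-, here KO), which encodes a scaffold of the centriolar satellites around the base of the primary cilium. The mutant line came from gene-trap embryonic stem cells of the line E14Tg2a.4 and was backcrossed to C57BL/6J for at least 3 generations, and the WT mice were littermates. No drug or stimulus is given for any group, and the tissues were snap-frozen on a single day. 3 mice of each genotype gave all 3 regions, which makes 18 mRNA libraries in 6 groups of 3, and libraries are named below by genotype and mouse (WT mouse 1 to 3, KO mouse 1 to 3). *Pcm1* lay, in CPM (counts scaled to a common library total), between 119.9 and 172 in the 9 WT libraries and between 11.8 and 17.6 in the 9 KO libraries, so that no library went against its genotype label.

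The sequence just upstream of a start site carries many of the elements that activity acts on. RefSeq promoter windows, from 250 bases before to 50 bases after the start of transcription, were held for *Fos*, *Fosb*, *Junb*, *Egr2*, *Egr4*, *Npas4* and *Nr4a1*, and the first listed window of each was searched. 4 of them are printed because the KO and WT libraries of these genes did not overlap in at least 2 regions. Lower case is the window 5′ to 3′ on the gene's strand in GRCm38.p6, and capitals mark matches to TGACG on either strand (the first 5 letters of the cyclic AMP response element, CRE), to GCGTGGGCG or GCGGGGGCG on either strand (the sites EGR proteins bind) and to TATAAA on the gene's strand.
Fos, chr12:85473640-85473939, plus strand: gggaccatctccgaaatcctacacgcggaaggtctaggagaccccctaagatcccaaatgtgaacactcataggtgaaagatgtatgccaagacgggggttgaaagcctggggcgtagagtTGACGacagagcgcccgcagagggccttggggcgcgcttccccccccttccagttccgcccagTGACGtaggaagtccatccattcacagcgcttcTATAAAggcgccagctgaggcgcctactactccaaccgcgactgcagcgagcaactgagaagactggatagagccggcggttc
Fosb, chr7:19309996-19310295, minus strand: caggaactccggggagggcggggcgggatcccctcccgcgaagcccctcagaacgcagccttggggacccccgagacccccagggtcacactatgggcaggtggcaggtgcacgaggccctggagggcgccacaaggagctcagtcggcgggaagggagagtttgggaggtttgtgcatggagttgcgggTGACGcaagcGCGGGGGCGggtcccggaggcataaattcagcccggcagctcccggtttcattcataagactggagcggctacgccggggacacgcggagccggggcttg
Egr4, chr6:85513540-85513839, minus strand: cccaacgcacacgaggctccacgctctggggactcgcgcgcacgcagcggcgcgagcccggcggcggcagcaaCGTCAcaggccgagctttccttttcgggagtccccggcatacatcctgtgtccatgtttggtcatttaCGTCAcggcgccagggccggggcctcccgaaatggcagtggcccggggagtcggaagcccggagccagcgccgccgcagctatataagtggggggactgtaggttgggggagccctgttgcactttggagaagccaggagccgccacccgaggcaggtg
Nr4a1, chr15:101266596-101266895, plus strand: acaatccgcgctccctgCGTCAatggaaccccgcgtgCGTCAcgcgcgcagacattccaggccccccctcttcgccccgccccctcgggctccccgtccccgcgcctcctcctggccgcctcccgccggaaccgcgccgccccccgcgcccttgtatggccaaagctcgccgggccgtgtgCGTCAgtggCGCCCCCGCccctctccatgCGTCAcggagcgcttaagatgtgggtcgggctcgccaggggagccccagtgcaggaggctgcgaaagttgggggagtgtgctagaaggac

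TGACG or its complement stood in 6 of the 7 windows searched and in 20.8% of the 32851 RefSeq windows of the same length. The exception was *Egr2*, of whose 5 listed windows only the first was searched. *Nr4a1* had 4 such matches, of which the nearest to the start site lay from 40 to 36 bases before it. *Fos*, *Egr4* and *Npas4* had 2 each, at -129 and -66 in *Fos*, counted from the start site to the first base of the match. The full palindrome TGACGTCA, which holds the shorter letters, stood in none of the 7 windows and in 1.79% of all windows. The CArG box that SRF binds stood in none of the 7 and in 1.63% of all. Bases outside these windows were not searched, nor were *Egr1*, *Arc* and *Ier2*, so an absence holds for the windows alone. An EGR site was found in *Fosb* and *Nr4a1* (3.47% of all windows) and TATAAA in *Fos* and *Junb* (8.32% of all windows). Such matches describe letters in these windows and are not measurements of binding.

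Depth was even, with 24950537 to 33405081 counts on genes per library. The dissections carried the markers of their region, since the striatal neuron markers *Drd1*, *Drd2*, *Adora2a*, *Ppp1r1b*, *Rgs9* and *Pde10a* were higher in WT striatum than in WT frontal cortex, all 7 markers of forebrain excitatory neurons were lower there, and all 5 dentate granule cell markers were higher in WT hippocampus than in WT frontal cortex, each at an adjusted p under 0.05. Some libraries stood apart. The striatum of WT mouse 2 held 5967 CPM of 5 choroid plexus markers, against 30.3 to 164 CPM in the other 5 striatal libraries, and the hippocampus of KO mouse 2 held 219 CPM of them against 2140 to 6260 CPM in the other 5. The striatum of WT mouse 3 held 88.0 CPM of the excitatory neuron markers against 13.1 to 32.2 CPM in the others. All 5 endothelial, all 5 microglial and all 5 oligodendrocyte markers had lower estimates in KO than in WT in every region, and their part in the results below was not tested.

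Which immediate early genes differed between Pcm1-/- and WT mice was asked within each region. In no region did any of the 10 pass the adjusted threshold of 0.05 with edgeR's quasi-likelihood test over all genes, which 1.74% of genes passed in cortical, 0.0285% in striatal and 0.0171% in hippocampal tissue. The cortical share rests on 306 genes, a number that ran from 11 (without KO mouse 1) to 825 (without WT mouse 3) with 1 library left out and was 29 with lane as a covariate. Estimates were higher in KO for 8 of 10 genes in cortical, 9 of 10 in striatal and 10 of 10 in hippocampal tissue. At an unadjusted p under 0.05, 3, 6 and 8 of the 10 were higher in KO, against 7.84%, 6.54% and 4.84% of all genes, and 0 of 10 were lower in any region, against 7.47%, 6.98% and 5.06% of all genes. Every KO library lay above every WT library for 2, 4 and 7 of the 10 genes, against 12%, 9.6% and 10.6% of all genes. Their median log2 fold change was 0.16 for frontal cortex, 0.43 for striatum and 0.52 for hippocampus, where the median over all genes tested was -0.0066, -0.0023 and -0.00033. With lane as a covariate the median was 0.13 for cortical and 0.37 for hippocampal tissue. That fit had 9 of 10 estimates higher in KO in each, with 1 and 6 of the 10 at an unadjusted p under 0.05 (edgeR). No lane held striatal libraries of both genotypes, so the striatal differences in this and the next paragraph cannot be told from a lane difference. The 10 genes deviated largely together across mice, so they are not independent observations. Members and the lists below were chosen with earlier results of these data known, so the shares of all genes beside them are a description. In RNA of whole tissue, more cells with a transcript and more transcript per cell cannot be told apart.

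With DESeq2's Wald test, which called 5.14%, 3.84% and 1.77% of the genes it tested in the frontal cortex, striatum and hippocampus, 0, 4 and 4 of the 10 passed the adjusted threshold. In the striatum these were *Nr4a1* (adjusted p = 6.71e-06), *Fosb* (0.00863), *Egr4* (0.0121) and *Egr1* (0.0182). In the hippocampus DESeq2 called *Egr4* (adjusted p = 0.00179), *Junb* (0.0106), *Nr4a1* (0.0184) and *Egr2* (0.0427). An edgeR fit of all 18 libraries at once called *Egr4* (adjusted p = 0.0248) and *Nr4a1* (0.0458) in the hippocampus, among 205 genes, and none of the 10 in the other regions. *Nr4a1* and *Egr4* were thus the genes of the 10 called in both regions by DESeq2.

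**Figure D1:**
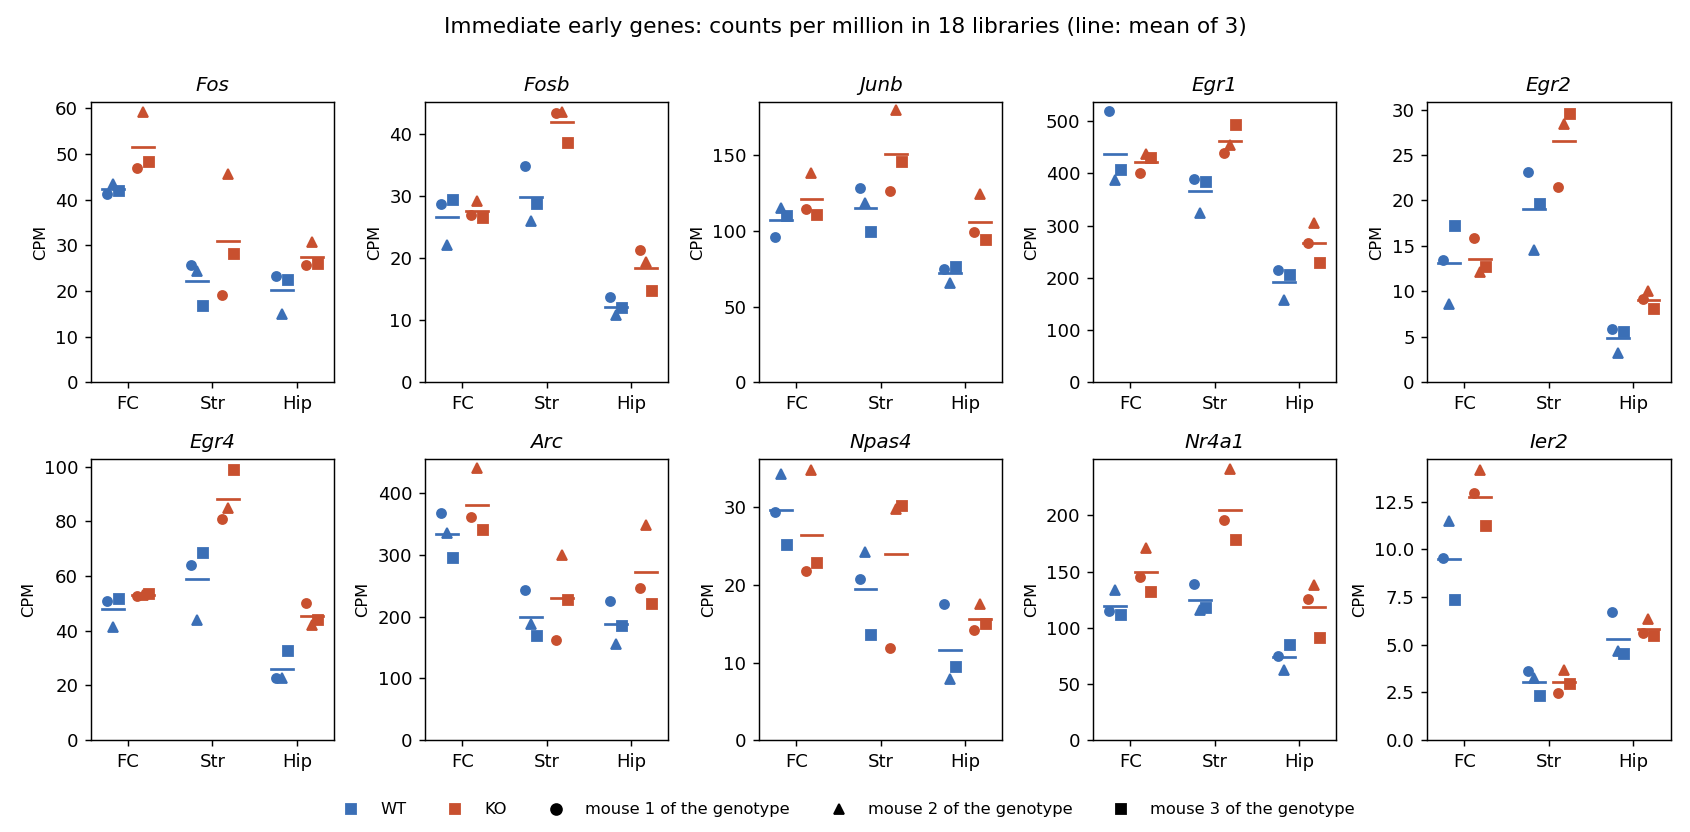
Level of each immediate early gene, in CPM (linear axis from 0), in the frontal cortex (FC), striatum (Str) and hippocampus (Hip) of 3 WT and 3 KO mice; each point is a library, each symbol a mouse and each line the mean of 3. In the hippocampus the KO points lie above all WT points for 7 of the 10 genes, and Ier2 is lowest in the striatum of both genotypes.

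The AP-1 genes *Fos*, *Fosb* and *Junb* encode partners that bind DNA as dimers of a Fos and a Jun protein. *Fos* (ENSMUSG00000021250, chromosome 12 from 85473890 to 85477273, plus strand) measured 41.3, 43.5 and 41.9 CPM in the frontal cortex of WT mice 1, 2 and 3 and 47.0, 59.3 and 48.3 CPM in that of KO mice 1, 2 and 3. Its striatal levels were 25.7, 24.5 and 16.7 CPM in WT and 19.1, 45.7 and 28.2 CPM in KO. In the hippocampus they were 23.3, 15.0 and 22.5 CPM in WT and 25.8, 30.7 and 25.9 CPM in KO. The genotypes did not overlap in the frontal cortex and the hippocampus but did in the striatum, where KO mouse 1 was below 2 of the WT mice and KO mouse 2 was the highest of all. As log2 fold changes, KO exceeded WT by 0.28 ± 0.090 (SE) in cortical (unadjusted p = 0.0128, adjusted p = 0.184), 0.48 ± 0.30 in striatal (0.145 and 0.526) and 0.42 ± 0.17 in hippocampal tissue (0.0434 and 0.496). The striatal value was 0.086 without KO mouse 2 and 0.73 without KO mouse 1.

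*Fosb* (ENSMUSG00000003545, chromosome 7 from 19302696 to 19310051, minus strand) is the AP-1 gene whose truncated protein product, ΔFosB, accumulates in the striatum on repeated stimulation. Its levels in the frontal cortex were 28.6, 22.0 and 29.3 CPM in WT mice 1 to 3 and 26.9, 29.2 and 26.4 CPM in KO mice 1 to 3. They were 34.8, 26.0 and 28.6 CPM in WT striatum and 43.3, 43.5 and 38.5 CPM in KO striatum. Hippocampal levels were 13.7, 10.9 and 11.96 CPM in WT and 21.2, 19.4 and 14.8 CPM in KO. All 3 KO mice were above all 3 WT mice in the striatum and hippocampus, with no such gap in the frontal cortex. Its log2 fold change was 0.039 ± 0.11 (SE) in cortical tissue, 0.49 ± 0.11 in striatal tissue (unadjusted p = 0.00234, adjusted p = 0.169) and 0.58 ± 0.16 in hippocampal tissue (0.00657 and 0.405). Counts per gene do not separate the *Fosb* transcript forms.

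*Junb* (ENSMUSG00000052837, chromosome 8 from 84974484 to 84978718, minus strand) encodes a Jun partner with weaker activating function than Jun. It measured 96.0, 115 and 109.7 CPM in WT frontal cortex and 114, 138 and 110.2 CPM in KO frontal cortex. Its striatal levels were 128, 118 and 99.0 CPM in WT and 127, 179 and 145 CPM in KO. In the hippocampus it measured 75.0, 65.5 and 75.9 CPM in WT and 99.4, 124 and 93.8 CPM in KO, without overlap. For this gene the log2 fold change was 0.17 ± 0.099 (SE) in cortical tissue, 0.39 ± 0.14 in striatal tissue (unadjusted p = 0.0223, adjusted p = 0.287) and 0.53 ± 0.12 in hippocampal tissue (0.00208 and 0.391). *Junb* overlaps *Prdx2* on the other strand, and the strand setting of the counting is not given in the sources used here, so a share of these counts may belong to *Prdx2*. *Junb* and *Ier2* lie on the chromosome of *Pcm1*, 43.6 and 43.3 Mb from it.

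The zinc finger factors of the EGR family bind a GC-rich element, and Egr1, also known as Zif268, is the one most used as an activity marker in the forebrain. *Egr1* (ENSMUSG00000038418, chromosome 18 from 34859823 to 34864984, plus strand) measured 519, 387 and 406 CPM in WT frontal cortex and 401, 436 and 429 CPM in KO frontal cortex. In the striatum it measured 389, 324 and 384 CPM in WT and 438, 455 and 492 CPM in KO. In the hippocampus it measured 214, 157 and 206 CPM in WT and 267, 304 and 229 CPM in KO. The frontal cortex of WT mouse 1 was the highest of all 18 libraries for this gene, while in the other regions every KO mouse lay above every WT mouse. Between genotypes the log2 fold change was -0.057 ± 0.10 (SE) in cortical tissue, 0.34 ± 0.090 in striatal tissue (unadjusted p = 0.00541, adjusted p = 0.203) and 0.45 ± 0.15 in hippocampal tissue (0.0156 and 0.426). Leaving out the frontal cortex of WT mouse 1 turned the first of these to 0.084, and a covariate for sequencing lane turned it to 0.067.

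*Egr2* (ENSMUSG00000037868, chromosome 10 from 67535475 to 67542188, plus strand), also known as Krox20 and best known for its role in myelinating Schwann cells, was the scarcest of the EGR genes. It measured 13.4, 8.68 and 17.2 CPM in WT frontal cortex and 15.9, 12.2 and 12.6 CPM in KO frontal cortex. Striatal levels were 23.1, 14.6 and 19.6 CPM in WT and 21.5, 28.4 and 29.6 CPM in KO. Hippocampal levels were 5.85, 3.18 and 5.58 CPM in WT and 9.21, 10.03 and 8.05 CPM in KO, from 85 to 166 counts per WT library and 239 to 280 per KO library. The 2 genotypes did not overlap in the hippocampus, where the log2 fold change of 0.88 ± 0.24 (SE) was the largest of the 10 genes (unadjusted p = 0.00605, adjusted p = 0.401). Its log2 fold change was 0.043 ± 0.22 in cortical tissue and 0.47 ± 0.18 in striatal tissue (unadjusted p = 0.0296, adjusted p = 0.316).

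*Egr4* (ENSMUSG00000071341, chromosome 6 from 85511121 to 85513589, minus strand) was the gene of the 10 for which every KO library lay above every WT library in all 3 regions. In the frontal cortex the WT mice measured 50.7, 41.3 and 51.6 CPM and the KO mice 52.9, 53.0 and 53.3 CPM. In the striatum they measured 64.0, 44.1 and 68.4 CPM and 80.7, 84.8 and 98.9 CPM. In the hippocampus they measured 22.9, 22.8 and 32.5 CPM and 50.1, 42.0 and 44.1 CPM. The gap was narrow in the frontal cortex and wide in the hippocampus, where the lowest KO mouse was well above the highest WT mouse. For this gene the log2 fold change was 0.14 ± 0.083 (SE) in cortical tissue (unadjusted p = 0.124, adjusted p = 0.469), 0.59 ± 0.16 in striatal tissue (0.00568 and 0.203) and 0.78 ± 0.16 in hippocampal tissue (0.00112 and 0.391).

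*Nr4a1* (ENSMUSG00000023034, chromosome 15 from 101254269 to 101274795, plus strand) encodes the orphan nuclear receptor Nur77, which in the striatum is known to respond to dopamine signaling. It measured 115, 134 and 111 CPM in WT frontal cortex and 145, 171 and 132 CPM in KO frontal cortex, where KO mouse 3 fell within the WT range. In the striatum it measured 139, 116 and 118 CPM in WT and 196, 241 and 178 CPM in KO. In the hippocampus it measured 75.2, 62.2 and 84.6 CPM in WT and 126, 138 and 91.3 CPM in KO. Both of these regions were without overlap. The striatal log2 fold change of 0.72 ± 0.12 (SE), a 1.65-fold higher level, had the smallest p of the 30 genotype tests on the 10 genes (unadjusted p = 0.00035, adjusted p = 0.111). Between genotypes the log2 fold change was 0.31 ± 0.10 in cortical tissue (0.0159 and 0.202) and 0.65 ± 0.17 in hippocampal tissue (0.00488 and 0.391). Without a filter on low counts, the striatal difference had an adjusted p of 0.0339, in a fit that called 65 of 24510 genes.

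*Npas4* (ENSMUSG00000045903, chromosome 19 from 4984355 to 4990316, minus strand), a bHLH-PAS factor induced by calcium entry in neurons, varied widely between mice of a genotype. Its levels in the frontal cortex were 29.4, 34.3 and 25.1 CPM in WT and 21.8, 34.9 and 22.8 CPM in KO. They were 20.8, 24.3 and 13.5 CPM in WT striatum and 11.9, 29.8 and 30.2 CPM in KO striatum. Hippocampal levels were 17.6, 7.83 and 9.40 CPM in WT and 14.2, 17.6 and 15.0 CPM in KO. The genotypes overlapped in every region, and log2 fold changes were -0.17 ± 0.18 (SE), 0.30 ± 0.35 and 0.41 ± 0.28 in cortical, striatal and hippocampal tissue (unadjusted p = 0.388, 0.414 and 0.185; edgeR). With 1 library left out these values ran from -0.42 to -0.038, from 0.092 to 0.62 and from 0.19 to 0.83.

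*Arc* (ENSMUSG00000022602, chromosome 15 from 74669083 to 74672570, minus strand) encodes a capsid-like protein that promotes the removal of AMPA receptors from synapses. It measured 368, 336 and 295 CPM in WT frontal cortex and 361, 440.4 and 339.6 CPM in KO frontal cortex. In the striatum it measured 243, 188 and 168 CPM in WT and 163, 299.9 and 227 CPM in KO. In the hippocampus it measured 225, 155 and 185 CPM in WT and 246, 348 and 220.2 CPM in KO. KO mouse 2 was the highest in each region, and the genotypes overlapped throughout. Its log2 fold change was 0.18 ± 0.11 (SE) in cortical tissue, 0.21 ± 0.22 in striatal tissue and 0.51 ± 0.19 in hippocampal tissue (unadjusted p = 0.126, 0.373 and 0.0306; adjusted p = 0.471, 0.724 and 0.461). Without KO mouse 2 the striatal value was -0.036.

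*Ier2* (ENSMUSG00000053560, chromosome 8 from 84661331 to 84662852, minus strand), a small nuclear protein of the rapid growth factor response, had its largest genotype estimate in the frontal cortex. It measured 9.56, 11.5 and 7.37 CPM in WT frontal cortex and 12.98, 14.1 and 11.2 CPM in KO frontal cortex. Its striatal levels were 3.64, 3.25 and 2.32 CPM in WT and 2.46, 3.69 and 2.93 CPM in KO, from 63 to 116 counts per library. In the hippocampus it measured 6.74, 4.68 and 4.53 CPM in WT and 5.62, 6.38 and 5.45 CPM in KO. KO was highest in the frontal cortex apart from an overlap with WT mouse 2, and the genotypes overlapped in the other regions. For this gene the log2 fold change was 0.43 ± 0.16 (SE) in cortical tissue (unadjusted p = 0.0235, adjusted p = 0.242), -0.013 ± 0.23 in striatal tissue and 0.11 ± 0.19 in hippocampal tissue.

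**Figure D2:**
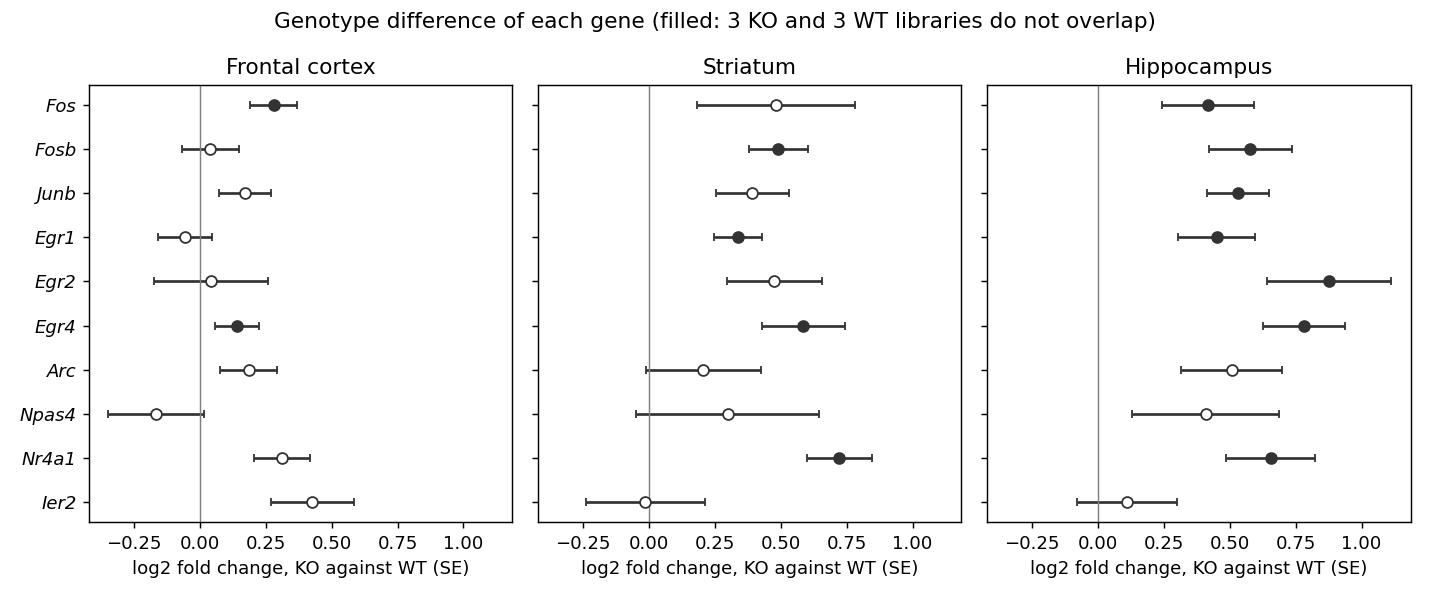
Log2 fold change between KO and WT (edgeR, point) with its standard error (bar) for each of the 10 genes in each region; filled points are genes whose 3 KO and 3 WT libraries do not overlap. The points run from -0.17 to 0.43 in the frontal cortex, where the median is 0.16, and from 0.11 to 0.88 in the hippocampus, where it is 0.52.

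Whether the genotype difference itself differed between regions was tested as an interaction over all genes. None of the 10 passed the adjusted threshold, which 0.0114% of genes passed. At an unadjusted p under 0.05 were 3 of the 10, as were 972 of 17545 genes. These were *Egr4*, *Fosb* and *Egr1* (edgeR, adjusted p = 0.795, 0.830 and 0.830; unadjusted p = 0.0266, 0.0315 and 0.0320). Their hippocampal log2 fold changes exceeded the frontal cortex ones by 0.65, 0.55 and 0.52. DESeq2's likelihood ratio test of the interaction also called none of the 10. The count of 3 ran from 0 (without the frontal cortex of WT mouse 1 or of KO mouse 1) to 4 with 1 library left out, and was 5, with none past the adjusted threshold, when the mouse was a block.

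1 KO mouse stood above the others. The mean log2 CPM of the 10 genes was highest in KO mouse 2 in every region, at 6.11 (cortical), 6.15 (striatal) and 5.55 (hippocampal), and this mouse had the highest of the 6 libraries for 6, 6 and 7 of the 10 genes. The other KO mice had cortical means of 5.93 and 5.87, striatal means of 5.61 and 5.95 and hippocampal means of 5.39 and 5.21. In WT mice 1 to 3 they were 5.88, 5.79 and 5.81 (cortical), 5.73, 5.46 and 5.38 (striatal) and 5.03, 4.54 and 4.89 (hippocampal). KO mouse 3 in the frontal cortex and KO mouse 1 in the striatum thus lay below the highest WT mouse, whereas in the hippocampus all KO means were above all WT means. The lowest hippocampal library, WT mouse 2, was lowest for 9 of the 10 genes.

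Without KO mouse 2, 7, 8 and 10 of the 10 genes had higher estimates in KO in the frontal cortex, striatum and hippocampus, 2, 4 and 6 had an unadjusted p under 0.05 (12.1%, 13.9% and 8.32% of all genes in either direction), and the median log2 fold change was 0.089, 0.29 and 0.38. In the frontal cortex 1 of those 2, *Npas4*, was lower in KO (-0.42). Without WT mouse 2, which held the choroid plexus transcripts in the striatum, 6, 10 and 10 genes were higher, 3, 5 and 6 had an unadjusted p under 0.05 (15.1%, 13.6% and 14.4% of all genes in either direction), and the medians were 0.13, 0.40 and 0.42. KO mouse 2 and WT mouse 2 were also the mice with counts on Y-linked genes, 2988 to 4306 per library against 0 to 5 in the libraries of the other 4 mice. Among those 4 mice alone, 6, 8 and 9 of the 10 genes were higher in KO and the medians were 0.069, 0.27 and 0.28. With the Y-linked counts as a covariate and all 6 mice, medians were 0.16, 0.40 and 0.51, and edgeR called *Nr4a1* in the frontal cortex (adjusted p = 0.0477), among 287 genes, and *Nr4a1* (0.0281), *Egr4* (0.0402) and *Egr1* (0.0441) in the striatum, among 505 genes. Both of these settings were chosen after the values were seen.

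**Figure D3:**
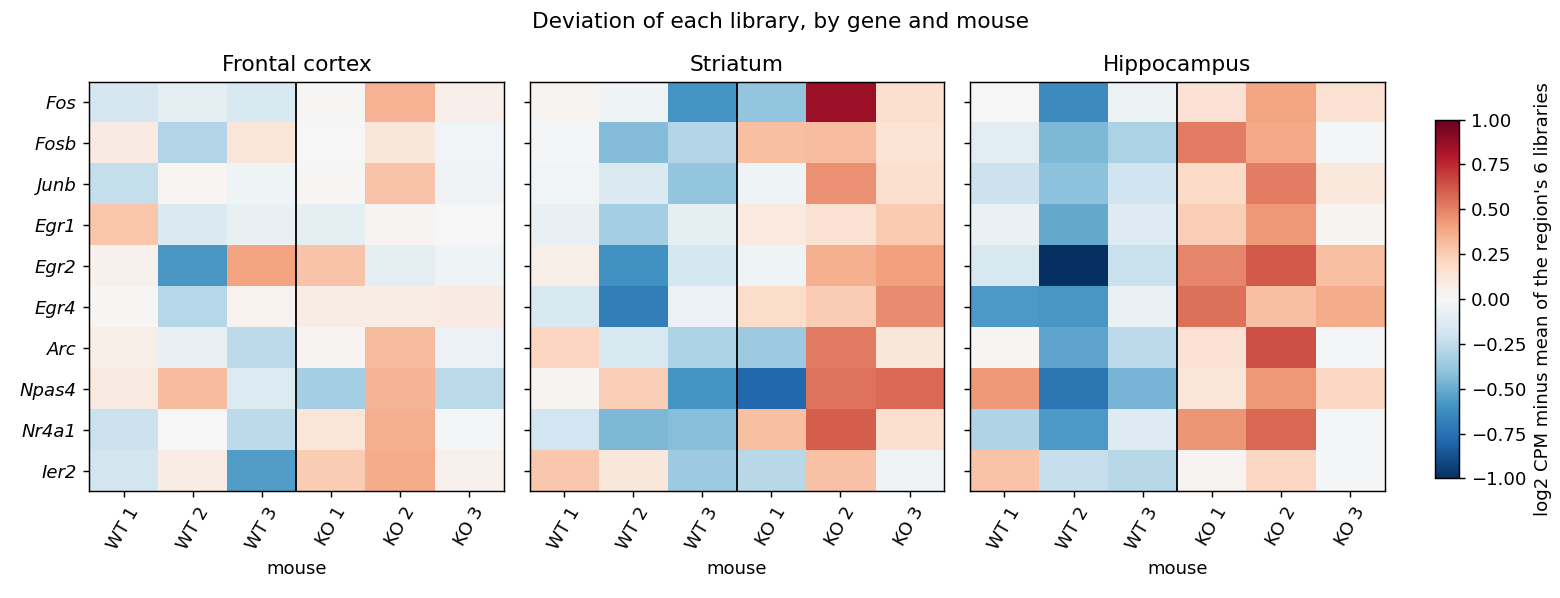
Deviation of each library from the mean of its region's 6 libraries (log2 CPM, color scale from -1 to 1), for the 10 genes in the 3 WT and 3 KO mice. KO mouse 2 is above the mean for nearly all genes in every region, and the hippocampus of WT mouse 2 is below it for all 10.

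Summed levels of cell type markers are set beside these results. In the hippocampus the summed excitatory neuron markers ran from 1878 to 2454 CPM in WT and from 2467 to 3101 CPM in KO, with 7 of 7 estimates higher, 0 of 7 at an adjusted p under 0.05 and a median log2 fold change of 0.18. The summed oligodendrocyte markers there ran from 4554 to 9209 CPM in WT and from 3461 to 5621 CPM in KO. In the striatum the 6 striatal neuron markers named above summed to 5750 to 6502 CPM in WT and 6247 to 6703 CPM in KO. 5 of these 6 had higher estimates in KO, and *Drd1* (0.61 ± 0.11, SE), *Adora2a* (0.30 ± 0.087) and *Drd2* (0.29 ± 0.056) did not overlap between genotypes, at adjusted p of 0.123, 0.222 and 0.128 in edgeR's test. Of all genes, 9.6% lay higher in KO without overlap in the striatum. There the summed oligodendrocyte markers ran from 8658 to 8863 CPM in WT and from 5204 to 8592 CPM in KO. The excitatory markers there ran from 15.1 to 88.0 CPM in WT and from 13.1 to 22.7 CPM in KO, with 7 of 7 estimates lower and a median log2 fold change of -1.11. Of these 7, 2 had an unadjusted p under 0.05, as did 6.98% of all genes in this direction, and 0 passed the adjusted threshold. In the frontal cortex, where the 10 genes had the smallest median, the excitatory markers ran from 2666 to 2709 CPM in WT and from 3036 to 3212 CPM in KO, most of it from *Slc17a7* at 1918 to 1986 CPM and 2282 to 2425 CPM. The median log2 fold change of the 7 was 0.047. *Slc17a7*, the vesicular glutamate transporter, was the 1 of 7 past the adjusted threshold, which 1.74% of all genes passed. It rose by 0.26 ± 0.049 (SE, edgeR adjusted p = 0.0396). No marker was at 0 throughout a group, and the part of composition in the differences of the 10 genes was not tested. In the striatum the 3 WT libraries ran on 1 lane and the KO libraries on 2 other lanes, and there the lane cannot be told apart from the genotype.

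The levels of these genes also separated the regions, which the design covers in the same mice. Per kilobase of exon, the highest mean levels in WT frontal cortex were those of *Arc* at 109 CPM per kb and *Egr1* at 97.5 CPM per kb, followed by *Junb* at 46.5, *Nr4a1* at 34.1, *Egr4* at 22.3 and *Fos* at 17.97 CPM per kb. *Npas4* at 7.16, *Ier2* at 6.22, *Fosb* at 4.27 and *Egr2* at 3.86 CPM per kb were the lowest. In WT hippocampus *Arc* at 61.6 and *Egr1* at 43.0 CPM per kb again led and *Fosb* at 1.95 and *Egr2* at 1.43 CPM per kb were last. In WT striatum *Egr1* at 81.6 CPM per kb was above *Arc* at 65.3 CPM per kb. The 4 lowest genes per kilobase were *Npas4*, *Ier2*, *Fosb* and *Egr2* in every region of WT mice, and differences between genes were not tested.

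WT hippocampus was below WT frontal cortex for all 10 genes, which did not overlap between these regions, as 23% of all genes did in this direction, and all passed the adjusted threshold, as 19.4% of all genes did. The log2 fold change ran from -1.43 ± 0.25 (SE) for *Egr2* to -0.57 ± 0.14 for *Junb*, with a median of -0.97. In KO mice the same contrast had 10 of 10 negative estimates with a median of -0.58, and 4 genes fell at the adjusted threshold, against 18.9% of all genes: *Ier2* (-1.14 ± 0.20), *Fos* (-0.91 ± 0.24), *Egr1* (-0.66 ± 0.13) and *Fosb* (-0.58 ± 0.14). With the mouse as a block, 8 of the 10 fell in KO, adding *Egr2*, *Arc*, *Npas4* and *Nr4a1*, where that fit called 42.8% of all genes in either direction. A fit of the 6 KO libraries of the contrast alone called 7, and 38.9% of all genes. That the regional contrast differed between genotypes was not shown for any of the 10, since the interaction above is the test of it.

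Striatum and frontal cortex were compared next. In WT mice *Ier2* (-1.62 ± 0.21, SE), *Fos* (-0.92 ± 0.24) and *Arc* (-0.74 ± 0.21) fell, 3 of the 10 against 24.1% of all genes in this direction, and 0 of 10 rose, against 24.2%, so the share of members that fell was near that of all genes. With the mouse as a block the count was 6, close to the 53.2% of all genes which that fit called in either direction, and it added *Egr1* (-0.25, adjusted p = 0.0385 in edgeR) as lower and *Egr2* (0.57, adjusted p = 0.00754) and *Egr4* (0.28, adjusted p = 0.0352) as higher. Leaving out the striatum of WT mouse 2 gave 5, where 44.3% of all genes were called in either direction. In KO mice *Ier2* (-2.07 ± 0.21), *Fos* (-0.73 ± 0.24) and *Arc* (-0.73 ± 0.21) fell, against 26.1% of all genes, and *Egr2* (0.96 ± 0.24), *Egr4* (0.73 ± 0.15), *Fosb* (0.60 ± 0.14) and *Nr4a1* (0.46 ± 0.15) rose, against 25% of all genes. With the mouse as a block *Junb* also passed (0.31, edgeR adjusted p = 0.0169), where 55.7% of all genes were called in either direction. The calls of *Fos*, *Arc* and *Nr4a1* each failed in at least 1 of the fits that left out 1 library.

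Hippocampus and striatum were told apart by 7 of the 10 genes in each genotype. In WT mice *Egr2* (-1.97 ± 0.25, SE), *Fosb* (-1.29 ± 0.14), *Egr4* (-1.17 ± 0.16), *Egr1* (-0.92 ± 0.13), *Nr4a1* (-0.75 ± 0.16) and *Junb* (-0.67 ± 0.14) were lower in the hippocampus, against 17.7% of all genes, and *Ier2* was higher by 0.79 ± 0.21, against 18.2%. In KO mice those 6 genes were again lower, from -1.55 ± 0.24 for *Egr2* to -0.51 ± 0.14 for *Junb*, against 19.4% of all genes, and *Ier2* was higher by 0.93 ± 0.21, against 22.2%. *Fos* and *Arc* did not pass in either genotype, with log2 fold changes of -0.14 ± 0.24 and -0.085 ± 0.21 in WT, and neither did *Npas4* (-0.76 ± 0.34 in WT). With the mouse as a block *Npas4* passed in WT (-0.76, edgeR adjusted p = 0.0394), where 40.9% of all genes were called in either direction. With 1 library left out, *Npas4* ran from -1.18 to -0.55 in WT and from -0.95 to -0.42 in KO, and it passed in 1 such fit of each genotype. The order of the levels therefore differed within the AP-1 genes: *Fos* was highest in the frontal cortex with no difference called between striatum and hippocampus, and *Fosb* was lowest in the hippocampus. *Ier2* alone among the 10 had its lowest level in the striatum in both genotypes.

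The libraries of a group differed more for these genes than for most. Over the 13100 genes whose log2 CPM averaged 1 or more, the median SD of log2 CPM between libraries of a group, pooled over the 6 groups, was 0.131, and the median over the 10 genes was 0.242. *Npas4* had a pooled SD of 0.477, at the 96.8th percentile of those genes, followed by *Egr2* at 0.347 and *Fos* at 0.339. *Egr1* had the smallest, 0.176, at the 69.5th percentile. The spread depended on the group, since *Fos* had an SD of 0.039 in WT frontal cortex and 0.63 in KO striatum, and *Egr4* one of 0.0061 in KO frontal cortex and 0.34 in WT striatum.

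After removal of the group means, the 10 genes deviated largely together across the 18 libraries, which came from 6 mice. Of 45 pairs, 40 had a Pearson r above 0, with a median of 0.44. *Fos*, *Junb* and *Arc* had the highest, 0.87 for *Fos* with *Junb*, 0.86 for *Fos* with *Arc* and 0.84 for *Junb* with *Arc*, and *Npas4* went with *Fos* at 0.81 and with *Ier2* at 0.81. A second group held *Fosb*, *Egr1* and *Egr2*, with r of 0.65 for *Fosb* with *Egr2*, 0.64 for *Egr1* with *Egr2* and 0.63 for *Fosb* with *Egr1*. *Egr4* followed *Egr2* (0.61) and *Egr1* (0.48) but neither *Fos* (-0.046) nor *Arc*, and its r with *Ier2* was -0.43. Against the mean of the other 9 genes, *Arc* had an r of 0.92 and *Egr4* one of 0.064.

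**Figure D4:**
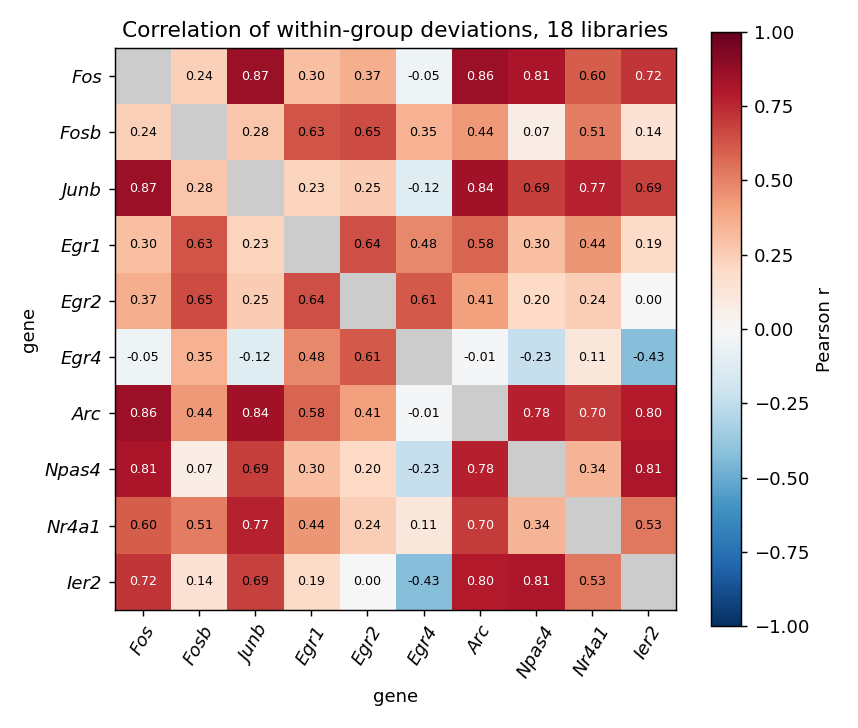
Pearson r between the immediate early genes, computed on log2 CPM minus the mean of the group over 18 libraries (color and number; gray diagonal left out). Fos, Junb, Arc, Npas4 and Ier2 form the block of high values, up to 0.87, and Egr4 is near or below 0 with them.

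The genes outside the list with the most similar deviations were mostly not textbook activity genes. The 10 with the highest r to the mean of the 10 immediate early genes were *Cdh20* (0.90), *Snhg20*, *Ing4*, *Wdhd1*, *Ttf1*, *Zfp276*, *Eef1d*, *Zfp36* (0.80), *Anks3* and *Pdxdc1* (0.79), and *Zfp36*, which encodes the mRNA decay factor tristetraprolin, was the only one in a list of rapidly induced genes. Ranked over 13100 genes, values of this size are a description of these 18 libraries. With Spearman's correlation 5 of these 10 genes stayed in the top 10.

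38 other rapidly induced genes were set beside the members. In the frontal cortex *Jun*, the founding AP-1 partner of *Fos*, rose from 43.5 ± 2.34 to 56.6 ± 4.14 CPM (SD, n = 3 each), up by 0.37 ± 0.071 in log2 (SE, edgeR adjusted p = 0.0409), as the 1 gene of the 38 past the adjusted threshold, a share near the 1.74% of all genes. At an unadjusted p under 0.05, 10 were higher and 1 lower, against 7.84% and 7.47% of all genes. In the striatum 0 of 38 passed it, with 5 higher and 1 lower unadjusted (6.54% and 6.98% of all genes), and in the hippocampus 0 of 38, with 11 higher and 0 lower (4.84% and 5.06%). *Fosl2*, a further Fos family gene, had the smallest p in both of those regions, at 0.93 ± 0.22 and 0.55 ± 0.12 (unadjusted p = 0.00289 and 0.00204, adjusted p = 0.177 and 0.391). It measured 38.1 ± 10.8 and 72.6 ± 15.4 CPM in WT and KO striatum and 36.2 ± 3.97 and 53.7 ± 7.02 CPM in WT and KO hippocampus (SD, n = 3 each). Next came the circadian gene *Per1* (0.47 ± 0.12) and the kinase *Sik1* (0.34 ± 0.12) in the striatum and the synaptic scaffold *Homer1* (0.36 ± 0.082) and *Nr4a3* (0.32 ± 0.082), a relative of *Nr4a1*, in the hippocampus, all without overlap and above an adjusted p of 0.05. The 38 had medians of 0.096, 0.081 and 0.11 in log2 for cortical, striatal and hippocampal tissue, below that of the 10 members in each.

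24 delayed activity-dependent genes, secreted peptides and growth factors among them, held 4 that rose in the frontal cortex. *Penk*, the enkephalin precursor, rose from 49.2 ± 6.46 to 95.6 ± 11.01 CPM (SD, n = 3 each), or 0.95 ± 0.11 in log2 (SE, edgeR adjusted p = 0.00816). The granin-type secretory genes *Scg2* (0.62 ± 0.094, adjusted p = 0.0195) and *Vgf* (0.40 ± 0.061, adjusted p = 0.0195) and the orphan receptor gene *Gpr3* (0.52 ± 0.094, adjusted p = 0.0369) rose as well. These were 4 of 24, where 247 of 17545 genes rose and 1.74% of all genes passed in either direction. None of the 24 fell, and 11 were higher at an unadjusted p under 0.05, against 7.84% of all genes. The list was chosen with earlier results of these data known, so these shares are a description and not a test. In the striatum none of the 24 passed, with 12 higher and 2 lower unadjusted (6.54% and 6.98% of all genes), the smallest p being that of the neurofilament gene *Nefm* (-0.48 ± 0.095, adjusted p = 0.128), then *Scg2* (0.49 ± 0.11) and the activin gene *Inhba* (0.62 ± 0.14). In the hippocampus none of the 24 passed, with 5 higher and 1 lower unadjusted (4.84% and 5.06% of all genes), the smallest p being those of *Bdnf*, a neurotrophin (0.55 ± 0.12, adjusted p = 0.391), *Vgf* (0.33 ± 0.091) and *Sorcs3* (0.28 ± 0.087). Of the 6 striatal markers named above, *Drd1*, which encodes a dopamine receptor, rose in the frontal cortex, from 11.6 ± 1.40 to 18.6 ± 0.792 CPM (SD, n = 3 each; edgeR adjusted p = 0.0177), while the other 5 had log2 fold changes from -0.042 to 0.38 and did not pass.

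29 genes that act upstream of the members or as their partners held 2 that fell in the frontal cortex. Of all genes, 59 of 17545 fell there, and 1.74% passed in either direction. *Mapk3*, the ERK1 kinase, fell by 0.34 ± 0.057 on the log2 scale (SE, edgeR adjusted p = 0.0252), from 171 ± 4.09 to 135 ± 7.001 CPM (SD, n = 3 each), and *Camk2a*, the calcium/calmodulin kinase subunit, fell by 0.32 ± 0.063 (adjusted p = 0.0475). No other of the 29 passed in this region, and 0 were higher and 5 lower at an unadjusted p under 0.05, against 7.84% and 7.47% of all genes. In the striatum 0 of 29 passed, with 2 higher and 2 lower unadjusted (6.54% and 6.98% of all genes). In hippocampal tissue 0 of 29 passed, with 2 higher and 1 lower (4.84% and 5.06%). The smallest p there belonged to *Nab1*, a corepressor of EGR proteins, in the striatum (-0.32 ± 0.073, adjusted p = 0.169), with *Rps6ka1* and *Mrtfa* next, and to its relative *Nab2* in the hippocampus (0.29 ± 0.092, adjusted p = 0.418), with *Rps6ka1* and *Srf* next. 8 heat shock and chaperone genes had 0 calls, and 0 of 8 had an unadjusted p under 0.05, in each region. Of all genes 7.84%, 6.54% and 4.84% were higher and 7.47%, 6.98% and 5.06% lower at that p in cortical, striatal and hippocampal tissue. Medians of the 8 in log2 were -0.051 (cortical), -0.095 (striatal) and 0.029 (hippocampal). After removal of group means, their r with the members' mean ran from 0.26 (*Dnajb1*) to 0.53 (*Hspa1b*), leaving out the scarce *Hspb1*. A part of tissue stress was not tested.

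The frontal cortex calls outside the 10 members depended on the libraries used. *Penk* passed in 5 of the 6 fits that left out 1 library, all but that without KO mouse 1, and with lane as a covariate (edgeR adjusted p = 0.0108). *Vgf*, *Scg2* and *Drd1* passed in 2 of 6, and *Jun*, *Gpr3*, *Mapk3*, *Camk2a* and *Slc17a7* in 1 of 6, the fit without WT mouse 3, and none of these 8 passed with lane as a covariate (adjusted p from 0.0584 to 0.144). All 9 kept the direction of their estimate in these fits, which were chosen after the values were seen.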

How the data were processed

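RNA was taken from 3 brain regions of 3 WT and 3 Pcm1-/- mice and sequenced from stranded mRNA libraries. The authors trimmed reads with Trim Galore and cutadapt, aligned them with STAR to GrCm38r73, retained uniquely placed reads and used HTSeq for counting; tool versions and the strand setting of counting are not given in the sources used here. They deposited raw counts per Ensembl gene, 1 table per library, without normalization. Groups came from the sample labels, and mice from animal tags of the deposited tables: libraries of the same mouse in different regions correlated, after removal of group means, at 0.232 on average (0.0801 to 0.386) and those of different mice at -0.115.

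Symbols and positions came from GENCODE M21 (GRCm38), which named 36639 of 38561 genes, and promoter windows from RefSeq (GRCm38.p6). The 17545 genes that reached 10 counts in any library were tested within each region with edgeR 4.0.16 (TMM factors, quasi-likelihood test, Benjamini-Hochberg adjustment over all of them, threshold 0.05) in R 4.3.3. Regions and the interaction were tested in 1 fit of all 18 libraries. That fit had no block by mouse and so treated the regions of a mouse as independent, and the block was an alternative. CPM used TMM factors over 18 libraries, and log2 CPM a prior count of 2. SE is the log2 fold change over the square root of F. The steps were tested on simulated data. The depth of 24950537 to 33405081 counts per library leaves the spread between mice as the main error, and n = 3 limits how well it is known. p-values set a difference against the spread between these samples. Alternatives were DESeq2 1.42.0, its size factors, other filters, other sets of libraries, lane, mouse or replicate number in the fit, and leaving out each library. No replicate pair agreed within sampling noise (chi-square per degree of freedom 7.05 to 59.3).

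Beside the 10 members, the genes named are those of each further list at an adjusted p under 0.05 (at most 5 per region) or else the 3 with the smallest p, and the 10 genes most correlated with the members; cell type markers are given mainly as sums, and 1 marker gene is not reported here. Members and lists were chosen with earlier results of these data known. Plots were made with matplotlib 3.10.9 in Python 3.11.15.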

Additional observations from a re-analysis of the deposited data

How the results depend on the processing

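Among the genotype comparisons, the count of members past the adjusted threshold was 0 in each region, and 0 in all fits that left out 1 library. It became 2 in the frontal cortex with the replicate number as a block (*Nr4a1*, adjusted p = 0.0191, and *Ier2*, adjusted p = 0.0374, among 665 of 17545 genes) and 1 with Y-linked counts as a covariate. In the striatum it became 4 with DESeq2, 1 with no filter on low counts (among 65 of 24510 genes) and 3 with Y-linked counts as a covariate, and in the hippocampus 4 with DESeq2 and 2 in 1 fit of all libraries. The labels give no pairing by replicate number. Same-numbered libraries of both genotypes correlated at 0.167 in the frontal cortex (lowest pair 0.0428), 0.265 in the hippocampus and -0.0823 in the striatum. Those of different number correlated at -0.0833, -0.130 and 0.0444. In the frontal cortex and hippocampus number 2 joins WT mouse 2 and KO mouse 2, the mice with Y-linked counts, and in WT striatum the numbers do not follow the mice. The block called 0 members in the striatum and hippocampus. Among region contrasts, the count of striatum against frontal cortex in WT was 3, with 6 under a block by mouse and 3 to 5 with 1 library left out; that of hippocampus against frontal cortex in KO was 4, with 8 under a block by mouse and 7 in a fit of the 6 libraries compared. Blocks changed the count by over 1.5 times nowhere else. Of the 10 genes most like the members, 5 were shared under Spearman's correlation.

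The sign turned for *Egr1* in the frontal cortex (0.067 with lane), *Ier2* in the hippocampus (-0.0088 with lane), and, in the 4 mice without Y-linked counts, *Fosb* (-0.12) and *Egr2* (-0.097) in the frontal cortex, *Arc* in the striatum (-0.077) and *Ier2* in the hippocampus (-0.041). With 1 library left out, KO against WT in the frontal cortex ranged from -0.073 to 0.11 for *Fosb*, -0.13 to 0.084 for *Egr1* and -0.17 to 0.29 for *Egr2*, in the striatum from -0.036 to 0.40 for *Arc* and -0.19 to 0.13 for *Ier2*, and in the hippocampus from -0.0030 to 0.32 for *Ier2*. Hippocampus against striatum ranged in WT from -0.31 to 0.033 for *Fos* and -0.23 to 0.074 for *Arc*, and in KO from -0.43 to 0.21 for *Fos*. Striatum against frontal cortex ranged from -0.030 to 0.14 for *Nr4a1* in WT and from -0.35 to 0.18 for *Npas4* in KO. Without a change of sign, KO against WT moved by over 1.5 times in the frontal cortex for *Junb* (0.060 to 0.23), *Egr4* (0.053 to 0.20), *Arc* (0.063 to 0.26), *Fos* (0.16 to 0.35), *Nr4a1* (0.20 to 0.40), *Ier2* (0.28 to 0.59) and *Npas4*, in the striatum for *Fos*, *Npas4*, *Junb* (0.24 to 0.50) and *Egr2* (0.31 to 0.64), and in the hippocampus for *Fos* (0.24 to 0.53), *Arc* (0.30 to 0.65) and *Npas4*. The cause of these changes was not tested. Depth limits *Ier2* most, at 63 to 116 counts per striatal library.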
